A study of Homo sapiens with 2 samples.

Results

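The COPI and COPII vesicle traffic genes are a list of 40 genes that encode vesicle coats, their GTPases, cargo receptors, tethers and SNAREs of the path between the endoplasmic reticulum (ER) and the Golgi. The members were chosen by function, with earlier results of these data already known. All 40 were found by gene name in the tables of both libraries, among 26228 names that these tables share. The RNA came from the human liver cancer line PLC, in cells that carried an empty vector (EV), with the genotype labelled WT, or stably over-expressed PRSS35, a secreted protein of the serine protease family. The stable cells came from lentiviral infection followed by puromycin selection, both lines were cultured in DMEM with serum as far as the labels say, and each condition has 1 library. Without replicates, a difference between the conditions and one between the libraries cannot be told apart, and no test was made.

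Proteins made in the ER leave it in vesicles coated with COPII, which the GTPase SAR1 starts by recruiting the inner SEC23-SEC24 layer and then the outer SEC13-SEC31 cage. COPI vesicles, whose coat is called coatomer and is recruited by ARF GTPases, carry escaped ER residents and recycling receptors back from the Golgi. In liver cells this path carries the load of plasma proteins that these cells secrete.

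Levels are given as FPKM, fragments per kilobase of transcript scaled to the mapped fragments of the library, each with the lower and upper bound that Cufflinks set around it in that library. These bounds cover counting and the assignment of fragments to transcripts within a library, and leave out variation between cultures. A gene with a mean of at least 1 FPKM over both libraries was called expressed, which held for 11118 names. A log2 change is PRSS35 against EV after 1 FPKM was added to both, which makes the change of a low gene look smaller than it is. In bulk RNA, fewer cells that express a gene and less RNA per cell cannot be told apart. By a line through single-exon genes, the EV library held roughly 29243108 fragments and the PRSS35 library 29884346. PRSS35 itself was at 0.643 FPKM (bounds 0.445 to 0.841) in EV and 1836 FPKM (bounds 1759 to 1912) in PRSS35 cells, as the labels say. All 9 markers of hepatocyte-derived cells were at 1 FPKM or more in both libraries, at very unlike levels. TTR was at 1.56 and 1.61 FPKM in EV and PRSS35 cells, ALB at 4.05 and 5.21, and SERPINA1 at 2528 and 4239. Of 5 markers of other cells 1 was at 1 FPKM or more, CD68 at 297.3 and 277.9 FPKM, while PTPRC was listed at 0 in both.

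The vesicle traffic genes were mostly slightly higher in PRSS35 cells, and no expressed member differed by 2-fold. Of the 40 members 39 were expressed, COPZ2 being the exception. Of these 39, 33 had a higher value in PRSS35 cells (84.6%, against 60.2% of all expressed genes). The FPKM interval in PRSS35 lay above that in EV for 21 members and below it for 1, while the intervals of 17 overlapped. For COPE, ARCN1, SEC23A and GOSR2 they overlapped although the interval of the ratio between the libraries lay to 1 side of a ratio of 1. Of all expressed genes, the interval in PRSS35 lay above that in EV for 25.2% and below it for 15.5%. These genes were not matched to the members for level, and their median in EV was 10.1 FPKM, against 22.7 FPKM over the members. The median log2 change was 0.18 over the members and 0.06 over all expressed genes, and the members ran from -0.19 to 0.43. At 2-fold, 0 members were higher and 0 lower, where 2.73% and 2.48% of all expressed genes were.

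How many members are higher depends on the scaling between the libraries. With FPKM divided by the upper quartile, 15 members had the higher and 3 the lower interval, against 18.4% of all expressed genes with the higher one. Over all expressed genes this scaling gave 2051 higher and 2303 lower intervals, where the deposited values gave 2803 and 1727. When each library was divided by its summed FPKM, the median log2 change over all expressed genes went from 0.06 to 0.68. All 39 expressed members then had the higher interval, as did 86.9% of all expressed genes. The median of the members lay above that of all expressed genes by 0.11 as deposited, and by 0.09 to 0.16 under the alternatives run. Directions below are those of the deposited values.

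Most of these genes had a higher value in PRSS35 cells, and their upstream sequence was therefore searched for known words. RefSeq promoter windows (GRCh38.p14), from 250 bases before to 50 bases after a transcription start, were found for 35 of the 40 members. Not matched were ARF4, KDELR2, TMED9, SEC24D and USO1. The word TGACGTGG, the core of the unfolded protein response element (UPRE), a site known to be bound by the stress factors ATF6 and XBP1, was searched on both strands. It was present in a window of 9 members (25.7%), COPA, COPB1, COPB2, ARF1, GBF1, SEC16A, SEC23A, SEC24A and KDELR3. In all, 253 of 27305 genes (0.927%) and 105 of 8179 expressed genes (1.28%) have it in a window, and 0.729% of all windows hold it.

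These matches are shown, with 11 bases on either side, because 8 of the 9 genes hold one within 50 bases before the start or after it. How often the word lies there in other genes that hold it was not counted. Each run is on the strand of the gene, 5′ to 3′, and capitals mark the match, which reads CCACGTCA where it lies on the opposite strand. Positions are on GRCh37, where each run was found once at or near the deposited locus of its gene. The run of SEC16A lies outside that locus, which ends at 139378211 in both libraries.
COPA: gagagggtcgcTGACGTGGaggcgtccgaa (chr1:160313017-160313046, minus strand)
COPB1: cccacccccttCCACGTCAgccaaggactc (chr11:14521387-14521416, minus strand)
COPB2, upstream: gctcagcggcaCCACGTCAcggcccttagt (chr3:139108667-139108696, minus strand)
COPB2, near the start: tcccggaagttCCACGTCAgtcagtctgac (chr3:139108474-139108503, minus strand)
ARF1: cccggaggcgcTGACGTGGccgccgtcaga (chr1:228270382-228270411, plus strand)
GBF1: gaggctagttaCCACGTCAgtgagctgaca (chr10:104005283-104005312, plus strand)
KDELR3: ggccgccctggCCACGTCAccgcccggcca (chr22:38864044-38864073, plus strand)
SEC16A: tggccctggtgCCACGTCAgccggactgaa (chr9:139379159-139379188, minus strand)
SEC23A: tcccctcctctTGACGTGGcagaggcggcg (chr14:39572425-39572454, minus strand)
SEC24A: gtgagagtcggTGACGTGGcggcgaggccg (chr5:133984285-133984314, plus strand)

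Other words were searched in the same way. The ER stress element ERSE, which is CCAAT followed after 9 bases by CCACG, was in 0 of the 35 members, 0.0916% of all genes and 0.183% of expressed genes, and its variant ERSE-II, ATTGG and CCACG with 1 base between them, was in 0 members, 0.0696% of all genes and 0.159% of expressed genes. The cyclic AMP response element TGACGTCA was in 0 members, 2.25% of all genes and 3.89% of expressed genes. The E-box CACGTG was in 5 members (14.3%, against 8.77% of all genes and 13.1% of expressed genes), and the CCAAT box in 14, against 39.7% of all and 43.1% of expressed genes. The CCAAT box is part of ERSE, and CCACG is shared by ERSE, ERSE-II and the reverse strand of the UPRE core.

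Among members with a window, those with and without a UPRE core had like changes. The 5 members without a window are in neither group. Of these, ARF4, KDELR2, SEC24D and TMED9 had the higher interval, with log2 changes of 0.42, 0.41, 0.37 and 0.18, and the intervals of USO1 overlapped. The 9 carriers had a median log2 change of 0.14, with 4 higher intervals and 1 lower, and the 25 other expressed members with a window had a median of 0.15, with 13 higher and 0 lower. Over all expressed genes with a window, the median was 0.15 for the 105 with the word and 0.06 for the 8074 without it, and 37.1% and 25.3% had the higher interval. The carriers among the members are counted in the former. These shares describe 1 pair of libraries, and a match is a run of letters and no evidence of a bound factor.

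Most COPI coat subunits differed little between the libraries. Of 8 expressed subunits, the interval was higher in PRSS35 cells for 2, COPA and COPG1, a share near the 25.2% of all expressed genes, and lower for 0, and the median log2 change was 0.09. COPA, the alpha subunit, which binds dilysine signals in the tails of ER membrane proteins, had 20.7 FPKM (bounds 19.6 to 21.8) in EV and 25.6 FPKM (bounds 24.3 to 26.9) in PRSS35 cells. Its locus kept the annotated identifier in EV and was assembled from reads in PRSS35 cells, and it overlaps that of NCSTN, which had 32.5 and 38.6 FPKM. COPG1, the main gamma subunit, had 74.7 FPKM (bounds 71.4 to 78.0) in EV and 93.3 FPKM (bounds 89.4 to 97.2) in PRSS35 cells, which is a ratio of 1.25 (interval 1.18 to 1.33 from the bounds of both libraries).

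The other coatomer subunits overlapped between the libraries. COPB1, the beta subunit, was at 17.3 and 17.7 FPKM in EV and PRSS35 cells, and COPB2, the beta-prime subunit, at 19.1 and 20.0 FPKM. ARCN1, the delta subunit, was at 26.7 and 29.1 FPKM, and COPZ1, the main zeta subunit, at 159.9 and 166.6 FPKM. These 4 subunits thus differed by a log2 change of 0.03 to 0.12. COPE, the epsilon subunit that stabilises the alpha subunit, was the most abundant member in both libraries, at 1156 FPKM (bounds 1112 to 1199) in EV and 1087 FPKM (bounds 1046 to 1128) in PRSS35 cells, and its interval was the lower one there once divided by the upper quartile. Although coatomer holds its subunits in equal numbers, COPE was 66.8 times the level of COPB1 in EV and 61.5 times in PRSS35 cells.

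The minor coatomer isoforms were low. COPG2, the second gamma subunit, had 4.34 FPKM (bounds 3.68 to 5.005) in EV and 5.09 FPKM (bounds 4.37 to 5.80) in PRSS35 cells, at a locus joined with TSGA13 in both, and made up 5.49% and 5.17% of the gamma transcripts. COPZ2, the second zeta subunit, had 0.346 FPKM (bounds 0.0514 to 0.641) in EV and 0.0992 FPKM (bounds 0 to 0.608) in PRSS35 cells, so that nearly all zeta transcripts were COPZ1. With bounds this wide a difference in COPZ2 was not detectable at this depth.

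The ARF GTPases, which recruit coatomer once loaded with GTP, differed among themselves. ARF4 had the larger difference, from 70.3 FPKM (bounds 67.8 to 72.8) in EV to 94.6 FPKM (bounds 91.7 to 97.5) in PRSS35 cells, a ratio of 1.35 (interval 1.28 to 1.41) and a log2 change of 0.42. This log2 change lay at percentile 91.0 of all expressed genes, and the locus, chr3:57557090-57583215 on the minus strand of hg19, kept its annotation in both libraries. ARF1, the ARF best known at the Golgi, was at 350.8 FPKM (bounds 335.4 to 366.2) in EV and 420.6 FPKM (bounds 402.3 to 438.9) in PRSS35 cells, although its EV locus is joined with the microRNA gene MIR3620. ARF3 was at 87.0 and 95.2 FPKM with intervals just apart, and they overlapped once FPKM was divided by the upper quartile.

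In contrast, ARF5 did not differ beyond its bounds, at 593.5 FPKM (bounds 567.2 to 619.8) in EV and 583.4 FPKM (bounds 557.5 to 609.3) in PRSS35 cells. It was the most abundant of the 4 ARF transcripts. Its share of their summed FPKM was 53.9% in EV and 48.9% in PRSS35 cells, while the share of ARF1 was 31.8% and 35.2% and that of ARF4 6.38% and 7.93%. GBF1, the exchange factor that loads ARFs with GTP at the early Golgi, was the only member with a lower interval as deposited. It had 28.8 FPKM (bounds 27.7 to 29.9) in EV and 25.0 FPKM (bounds 24.1 to 26.0) in PRSS35 cells, a ratio of 0.870 (interval 0.824 to 0.918), but this direction turned when each library was divided by its summed FPKM. Its locus is chr10:104005255-104142656 on the plus strand of hg19. As deposited, ARF1, ARF3 and ARF4 thus had the higher interval, GBF1 the lower one, and the intervals of ARF5 overlapped. After division by the summed FPKM all of these had the higher interval, as did all 39 expressed members.

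The KDEL receptors bind the retrieval signal of soluble ER proteins in the Golgi and bring them back in COPI vesicles. KDELR2 had 60.2 FPKM (bounds 57.2 to 63.3) in EV and 80.3 FPKM (bounds 76.5 to 84.2) in PRSS35 cells, a ratio of 1.33 (interval 1.24 to 1.43), and its locus, chr7:6500712-6523849 on the minus strand of hg19, was the annotated one in both. KDELR3 was lower in level, at 10.1 FPKM (bounds 9.07 to 11.2) in EV and 12.9 FPKM (bounds 11.7 to 14.1) in PRSS35 cells. Its intervals overlapped once divided by the upper quartile, it was assembled in PRSS35 cells alone, and its locus overlaps that of DDX17, at 21.1 and 27.9 FPKM. KDELR1, the most abundant receptor, was at 174.5 FPKM (bounds 166.2 to 182.8) in EV and 182.6 FPKM (bounds 174.0 to 191.3) in PRSS35 cells, and its value was the lower one in PRSS35 cells after division by the upper quartile. In shares of the receptor transcripts, KDELR1 made up 71.3% in EV and 66.2% in PRSS35 cells, and KDELR2 24.6% and 29.1%.

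The p24 proteins are small membrane proteins that cycle between ER and Golgi, bind both coats and take GPI-anchored cargo along. All 3 members had the higher interval in PRSS35 cells, as deposited and after division by the upper quartile. Division by the summed FPKM gave it too, but did so for all 39 expressed members. The further p24 genes were split. TMED1 (221.2 FPKM in EV and 173.5 in PRSS35 cells), TMED3 (254.8 and 221.4) and TMED5 (12.6 and 10.8) had the lower interval. The intervals of TMED7 overlapped, and TMED4 had the higher one. TMED2 was at 59.8 FPKM (bounds 57.8 to 61.8) in EV and 70.9 FPKM (bounds 68.7 to 73.1) in PRSS35 cells. TMED10 was at 23.4 FPKM (bounds 22.5 to 24.3) in EV and 27.6 FPKM (bounds 26.7 to 28.6) in PRSS35 cells. TMED9 was at 471.8 FPKM (bounds 464.4 to 479.3) in EV and 532.8 FPKM (bounds 524.9 to 540.7) in PRSS35 cells. Their ratios were 1.18, 1.18 and 1.13, and the loci kept their annotation in both libraries. The 3 transcripts kept nearly the same shares of their own summed FPKM, with TMED9 at 85.0% and 84.4%. These shares leave out the further p24 genes.

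On the COPII side, 10 of 15 members (66.7%) had the higher interval and 0 the lower one, with a median log2 change of 0.19. On the COPI side, counted with the ARF group, KDEL receptors and p24 proteins, 10 of 19 expressed members (52.6%) had the higher interval. There 1 had the lower one, and the median was 0.18. Of all expressed genes, 25.2% had the higher interval. SAR1A and SAR1B encode the GTPases that start the COPII coat. SAR1A was at 15.7 FPKM (bounds 14.6 to 16.7) in EV and 18.5 FPKM (bounds 17.3 to 19.8) in PRSS35 cells, intervals that overlapped after division by the upper quartile. SAR1B, the paralogue known for the export of lipoprotein particles, was at 2.71 FPKM (bounds 2.45 to 2.97) and 2.63 FPKM (bounds 2.37 to 2.88). SAR1A thus made up 85.3% of SAR1 transcripts in EV and 87.6% in PRSS35 cells.

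Both genes of the outer cage were higher in PRSS35 cells. SEC13, which is also a nuclear pore subunit, was at 145.9 FPKM (bounds 138.6 to 153.2) in EV and 192.2 FPKM (bounds 183.0 to 201.4) in PRSS35 cells, a ratio of 1.32 (interval 1.23 to 1.41). SEC31A was at 15.2 FPKM (bounds 14.4 to 16.1) in EV and 19.6 FPKM (bounds 18.6 to 20.6) in PRSS35 cells, a ratio of 1.29 (interval 1.20 to 1.39). Both stayed apart after division by the upper quartile. Although the proteins pair in the cage, SEC13 transcripts were 9.58 times the level of SEC31A in EV and 9.80 times in PRSS35 cells.

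In the inner layer, SEC23 activates the GTPase of SAR1 and SEC24 binds cargo. SEC23B was at 33.8 FPKM (bounds 32.2 to 35.3) in EV and 38.8 FPKM (bounds 37.2 to 40.4) in PRSS35 cells, and SEC23A at 15.6 FPKM (bounds 14.6 to 16.6) and 17.2 FPKM (bounds 16.5 to 18.0), with overlap. SEC23B made up 68.4% and 69.2% of SEC23 transcripts. The balance within this pair was therefore nearly the same in both libraries.

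Among the 4 SEC24 cargo adaptors, SEC24A and SEC24D were higher in PRSS35 cells and rare. SEC24A was at 1.81 FPKM (bounds 1.60 to 2.03) in EV and 2.78 FPKM (bounds 2.51 to 3.05) in PRSS35 cells, with the highest ratio of any expressed member, 1.53 (interval 1.32 to 1.78), and a log2 change of 0.43. At this low level the log2 change depends on the pseudocount, and was 0.59 with 0.1 FPKM and 0.19 with 5 FPKM. SEC24D was at 5.07 FPKM (bounds 4.65 to 5.49) in EV and 6.82 FPKM (bounds 6.34 to 7.30) in PRSS35 cells, a ratio of 1.35 (interval 1.21 to 1.499), and its log2 change of 0.37 was 0.23 with a pseudocount of 5 FPKM. Both loci were annotated in both libraries, that of SEC24A at chr5:133984475-134063601 on the plus strand of hg19.

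SEC24C, which dominated the family, was at 55.9 FPKM (bounds 53.7 to 58.2) in EV and 62.0 FPKM (bounds 59.4 to 64.5) in PRSS35 cells, at a locus joined with FUT11 in both, so that these values hold both genes, and the intervals overlapped after division by the upper quartile. SEC24B was at 2.104 FPKM (bounds 1.84 to 2.36) and 2.07 FPKM (bounds 1.82 to 2.32), without a difference beyond its bounds. In shares of SEC24 transcripts, SEC24C made up 86.2% in EV and 84.2% in PRSS35 cells, SEC24D 7.81% and 9.26%, SEC24A 2.79% and 3.78%, and SEC24B 3.24% and 2.81%. SEC16A, the scaffold of ER exit sites, was at 13.5 FPKM (bounds 12.96 to 14.04) and 13.9 FPKM (bounds 13.4 to 14.5), with overlap.

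**Figure D1:**
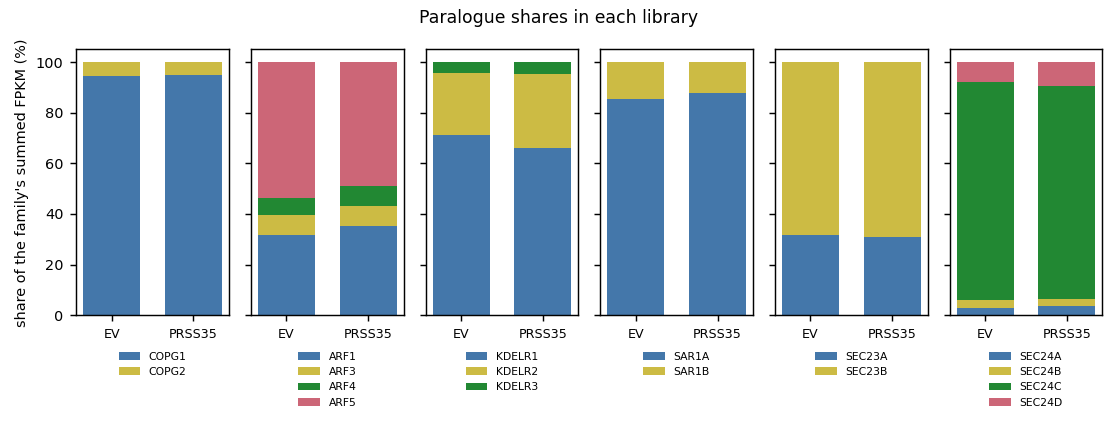
Share of each paralogue in the summed FPKM of its family, in percent, for EV and PRSS35 cells, 1 library each. COPG1, SAR1A, SEC23B and SEC24C hold most of their families in both libraries. ARF5 and KDELR1 hold a smaller share in PRSS35 cells, 48.9% against 53.9% and 66.2% against 71.3%.

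The cargo receptors of COPII vesicles load soluble and membrane proteins at ER exit sites. SURF4, a receptor known for exporting lipoproteins and other secreted proteins of hepatocytes, was at 233.3 FPKM (bounds 223.1 to 243.4) in EV and 302.4 FPKM (bounds 292.8 to 312.0) in PRSS35 cells, a ratio of 1.296 (interval 1.23 to 1.37). LMAN2, a lectin that binds high-mannose glycans, was at 236.0 FPKM (bounds 231.5 to 240.5) in EV and 291.5 FPKM (bounds 278.5 to 304.5) in PRSS35 cells, a ratio of 1.24 (interval 1.18 to 1.296). Both were clear of overlap also after division by the upper quartile, in contrast to LMAN1.

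LMAN1 and MCFD2 encode the complex that carries coagulation factors V and VIII out of the ER. LMAN1, the lectin subunit, was at 9.50 FPKM (bounds 8.85 to 10.2) in EV and 10.9 FPKM (bounds 10.4 to 11.5) in PRSS35 cells. MCFD2, the calcium-binding subunit, was at 22.7 FPKM (bounds 21.4 to 24.01) and 24.1 FPKM (bounds 22.7 to 25.4), with overlap, and its locus overlaps TTC7A, at 16.3 and 16.5 FPKM. LMAN2 transcripts were 24.8 times the level of LMAN1 in EV and 26.7 times in PRSS35 cells.

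Among the tethers and SNAREs, which hold vesicles at the Golgi and fuse them, 1 of 5 members (20%) had the higher interval. This share was near the 25.2% of all expressed genes. The 1 member was GOLGA2, the tether GM130, at 14.6 FPKM (bounds 12.2 to 16.9) in EV and 17.9 FPKM (bounds 16.9 to 18.8) in PRSS35 cells. Its intervals overlapped after division by the upper quartile. USO1, the tether p115, was at 4.67 FPKM (bounds 4.21 to 5.12) and 4.97 FPKM (bounds 4.53 to 5.42). The SNAREs BET1, at 3.23 and 3.50 FPKM, and SEC22B, at 17.3 and 18.0 FPKM, overlapped as well. The SEC22B locus overlaps a locus that joins several NBPF genes. GOSR2, a Golgi SNARE, was at 21.3 FPKM (bounds 19.9 to 22.6) in EV and 19.1 FPKM (bounds 18.0 to 20.2) in PRSS35 cells, with the lower interval once divided by the upper quartile.

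Assembly of loci by Cufflinks, done in each library separately, moves with the difference between the libraries. Among all expressed genes, the interval in PRSS35 cells was the higher one for 39.3% of 1153 genes assembled in PRSS35 only, and for 16.5% of 1089 assembled in EV only. All 3 members assembled in PRSS35 only, COPA, KDELR3 and SAR1A, had the higher interval, as did 2 of 5 members assembled in EV only. Of the 20 members assembled in both libraries, 8 had the higher interval and 1 the lower one, against 24.8% and 19.2% of 6494 such genes, and their median log2 change was 0.07 against 0.05. Of the 11 expressed members annotated in both libraries, 8 had the higher interval and 0 the lower one (72.7%, against 23.5% and 6.84% of 2382 such genes), and their median log2 change was 0.24 against 0.08. The 8 annotated members with the higher interval are ARF4, KDELR2, TMED2, TMED9, TMED10, SEC24A, SEC24D and LMAN2.

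The level of a member moved with the base composition of its transcript. Over the 39 expressed members, FPKM in EV and the GC content of the annotated transcript (GENCODE on GRCh37) had a Spearman correlation of 0.64, and FPKM and transcript length one of -0.56. Over the 9995 expressed genes with an annotated transcript these were 0.38 and -0.39. The 13 members richest in GC, from 52.6% to 62.9%, had a median of 174.5 FPKM in EV, and the 13 poorest, from 35.7% to 42.99%, a median of 15.7 FPKM. The log2 change had a correlation of -0.03 with GC content and of -0.12 with length, over the same 39 members, which share their 2 libraries. The part of base composition in the differences of level was not tested.

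Other genes of the same path were about as often lower as higher in PRSS35 cells. Of 60 such genes, among them further p24 proteins, RAB GTPases, SNAREs and the tethering complexes COG and TRAPP, 56 were expressed. Their intervals were higher in PRSS35 cells for 10 (17.9%) and lower for 12 (21.4%), against 25.2% and 15.5% of all expressed genes. The median log2 change was 0.04. At 2-fold, 1 was higher and 2 were lower. The former was TMED4, a p24 protein, at 43.04 FPKM in EV and 155.6 FPKM in PRSS35 cells, but its locus was joined with DDX56 in PRSS35 cells alone. SEC16B, a relative of SEC16A, had 4.46 FPKM in EV, at a locus joined with LOC730102, and 0.576 FPKM in PRSS35 cells. COG3, a subunit of the COG tether, had 10.5 FPKM (bounds 7.51 to 13.6) in EV and 3.16 FPKM (bounds 2.41 to 3.91) in PRSS35 cells. The next lowest log2 change was that of TRAPPC5, -0.47, and the next highest were those of TRAPPC10, 0.61, and SCFD2, 0.32. The difference between these genes and the members was not tested, and both lists were chosen with earlier results of these data known.

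Of 30 genes for coats and receptors of the trans-Golgi, where clathrin and adaptor complexes take over, 26 were expressed, with a median log2 change of 0.11. Of these 26, 8 (30.8%) had the higher interval and 3 (11.5%) the lower one, against 25.2% and 15.5% of all expressed genes. AP1S1 and AP1M2, subunits of the adaptor AP-1, had log2 changes of 0.87 and 0.59, and the clathrin heavy chain CLTC one of 0.24. ARFRP1 and AP4B1 had -0.45 and -0.34. GGA3, a cargo adaptor, was at 9.004 FPKM in EV and is listed at 0 in PRSS35 cells, at a locus assembled in both libraries. Its bounds in PRSS35 cells are 0 as well, and it counts among the lower intervals.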

How the data were processed

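The data are RNA-seq of 2 samples, PLC cells with EV or PRSS35, 1 library each (unstranded kit, HiSeq2500). The authors aligned reads to hg19 with TopHat2 2.1.0 and ran Cufflinks 2.2.1 (named Cuffdiff in the submitters' notes), and the deposited values are FPKM per locus with lower and upper bounds. The annotation release and options are not given in the sources used here. Loci on chromosomes of the primary assembly were summed by gene name, and a locus that joins several names counted for each. Half-widths of summed loci were added in quadrature. The interval of a ratio takes the bounds as 2 standard errors. As FPKM with 1 library per condition allows no test, members are described by counts and medians beside all expressed genes. The text names all 40 members, PRSS35 and, of the other lists, the 3 genes with the highest and the 3 with the lowest log2 change, and any past 2-fold. ALB, TTR, SERPINA1, CD68, PTPRC and genes that overlap a member or are joined with it were named after their values were seen. So were TMED1, TMED3, TMED5 and TMED7. The members and lists were chosen with earlier results of these data known. Alternatives changed the pseudocount, scaling, filter, threshold, joined and assembled loci. Depth was estimated from the bounds at genes of a single exon, 91 for EV and 101 for PRSS35. Transcript length and GC content are from GENCODE 44 on GRCh37, which is the assembly of hg19. Software was pandas 2.3.3, scipy 1.17.1, matplotlib 3.10.9 and numpy 2.4.6 under Python 3.11.15.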

Additional observations from a re-analysis of the deposited data

How the results depend on the processing

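With 1 library per condition, the bounds cover error within a library only. No paired analysis was possible because there is only 1 library of each kind. 0 members passed 2-fold under each alternative except division by the summed FPKM, and at 1.5-fold the count was also 0.

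With each library divided by its summed FPKM, 7 members were higher by 2-fold and their median log2 change was 0.83. All expressed genes then had a median of 0.68, with 1273 higher and 180 lower, the other early secretory genes 0.70, with 2 and 1, and the trans-Golgi genes 0.74, with 2 higher. Intervals were higher for 39 members (100%) and lower for 0, and higher for 9764 (86.9%) and lower for 272 of all expressed genes. With the upper quartile, 38.5% of members had the higher and 3 members the lower interval, and 18.4% of all expressed genes had the higher one. Over all loci the summed FPKM was 2469030 in EV and 1508529 in PRSS35 cells, and over expressed names 1035840 and 998221. The cause of these shifts with the scaling was not tested.

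Restricting to loci annotated in both libraries, which leaves 11 members and for intervals was added after seeing the data, gave 8 members (72.7%) with the higher and 0 with the lower interval, and 560 and 163 of all expressed genes. At 2-fold, 17 of all expressed genes were then higher and 15 lower, and 0 genes of either other list in either direction. Counts of all expressed genes at 2-fold went from 303 higher and 276 lower to 192 and 162 with a pseudocount of 5 FPKM and to 581 and 475 at 1.5-fold. There were 183 higher with joined loci left out and 169 lower at a mean of at least 5 FPKM.

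For the other early secretory genes, 0 were lower with a pseudocount of 5 FPKM, 1 was lower at a mean of at least 5 FPKM, 0 were higher and 1 lower with joined loci left out, and 2 were higher at 1.5-fold. For the trans-Golgi genes, 2 were higher at 1.5-fold and 0 lower at a mean of at least 5 FPKM. Fewer genes entered under these filters. Leaving joined loci out removes ARF1, COPG2 and SEC24C, and their families then have no shares. Leaving out the 5 members that overlap another named locus above 1 FPKM, a choice made after seeing the data, gave 19 higher intervals and 1 lower. Single members changed sign in 6 cases with the upper quartile, 5 with centring on the median and 6 with the sum.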

Other observations

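The width of the deposited bounds varied between the libraries for some members at like levels. For LMAN2 the bounds imply about 11195 fragments in EV and 2014 in PRSS35 cells, and for GOLGA2 about 155 in EV and 1433 in PRSS35 cells. For TMED9, which kept its annotation, they imply 16139 and 18215. For COPE, the most abundant member, they imply 2820 and 2831 only. These numbers come from the width of the bounds and are not counts.

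Among the 39 expressed members, GBF1 had the lowest log2 change and ARF4 the second highest, although their products act together. The log2 change of GBF1 was -0.19, at percentile 17.1 of all expressed genes, and that of ARF4 was 0.42, at percentile 91.0. No replicate bears on this contrast.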
